A study of Mimachlamys nobilis with 6 samples.

Results

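Among 30231 gene IDs measured in scallop adductor muscle, 18 were steady in all 6 libraries. They were chosen by their deposited FPKM values (fragments per unit of gene length and of library size). Each had at least 10 FPKM in every library, and its largest value was at most 25% above its smallest. The level minimum alone was met by 1268 IDs, so the 18 were 1.42% of the genes at that level. The small spread of the members is thus a description and not a finding. Below, the ratio of a gene is its largest value divided by its smallest.

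The libraries came from adductor muscle, which pulls the valves of the shell together, of QN Orange scallops (Mimachlamys nobilis) aged 1 year. The control group of 3 libraries had no RNA interference (RNAi), and the other 3 libraries had RNAi against VPS29. Per the labels' protocols, total RNA was isolated from each tank. No label says how many animals a library held, or gives the dose, duration or route of the RNAi, so the spread between libraries may be partly technical. The files do not pair the IDs with gene names. The VPS29 transcript, the tissue's marker genes and the function of each steady gene are therefore not given here. Fewer muscle cells and less RNA per cell cannot be told apart in bulk tissue such as this.

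RNAi reduces the mRNA of the gene it targets, and VPS29 is a subunit of retromer, which returns membrane proteins from endosomes to other membranes. In expression studies, transcripts with a nearly constant level serve as references against which others are measured. The usual choices code for parts of the cytoskeleton, of the ribosome or of basic metabolism. A transcript can be called steady only relative to a scaling of the libraries, because sequencing measures shares of a library and not amounts per cell.

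The steady genes covered low and middle levels and none of the most abundant transcripts. Their mean over the 6 libraries ran from 12.1 to 151 FPKM, with a median of 25.2 FPKM, against a median of 39.4 FPKM and a highest mean of 226766 FPKM for the other 1250 genes at that level. Of the 18, 8 had a mean under 25 FPKM, 4 lay between 25 and 50 FPKM and 6 were above 50 FPKM. By level, they were 7 of 249 genes (2.81%) with a mean of 10 to 20 FPKM, 5 of 506 (0.99%) at 20 to 50 FPKM, 4 of 198 (2.02%) at 50 to 100 FPKM and 2 of 113 (1.77%) at 100 to 200 FPKM. None of the 202 genes with a mean of 200 FPKM or more qualified, where the smallest ratio was 1.32. In the lowest of these bands a gene with a large spread would have missed the level minimum in some library. That minimum bounds the median ratio of 1.78 in this band and raises its share of 2.81%. With so few steady genes in each band, a trend with level was not tested. The median ratio was 2.15 to 2.37 in the other bands.

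**Figure D1:**
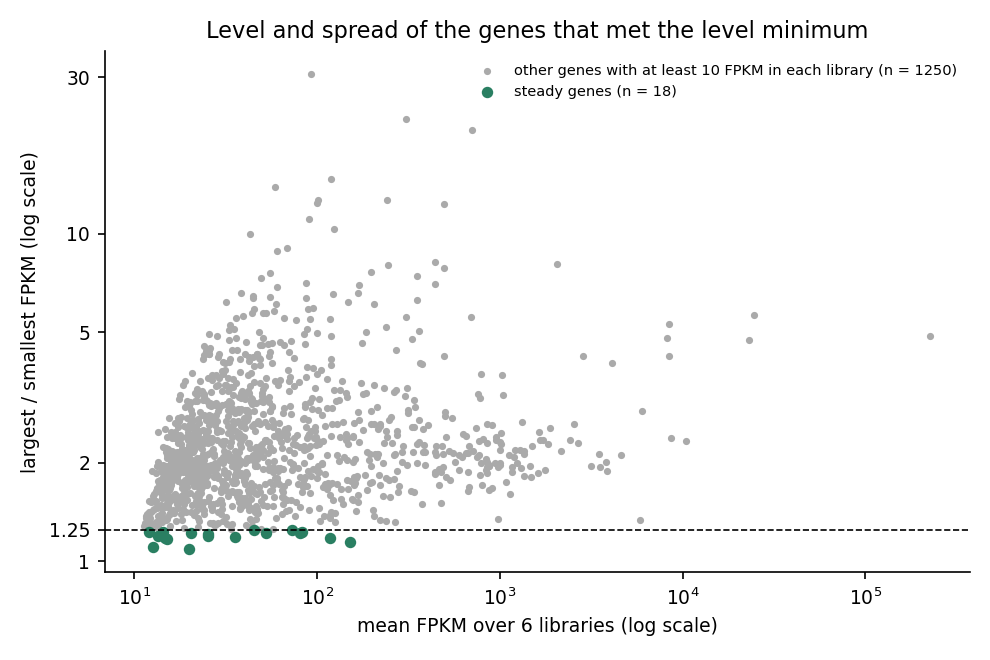
Mean FPKM over the 6 libraries (x axis, log scale) against the ratio of the largest to the smallest FPKM (y axis, log scale) for the 1268 genes with at least 10 FPKM in each library. The dashed line is the limit at 25% above the smallest value. The 18 steady genes lie below it at means of 12.1 to 151 FPKM, and no gene at 200 FPKM or more does.

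Ratios of that size were at the edge of the distribution and not in a group of their own. Of the 1268 genes, 1 had a ratio of at most 1.1, 9 of at most 1.2, 148 of at most 1.5 and 560 (44.2%) of at most 2. The member nearest to the ratio limit had a ratio of 1.248 (41.7 to 52.1 FPKM), and the nearest gene outside it had 1.251 (11.6 to 14.5 FPKM). At the level limit, the member with the lowest value ran from 10.7 to 13.1 FPKM. A gene with a ratio of 1.19 stayed out because its lowest value was 9.56 FPKM.

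By ID, 17 of the 18 were gene models named by contig and 1 was named by a word and a running number (5.56%). The second kind made up 10.3% of the 1268 genes at that level and 11.4% of all IDs. With 1 such ID among 18, the share has a wide counting error. The 17 contig models lay on 17 different contigs, so no contig held a pair of them. The IDs with the next lower or next higher number on the same contig gave 31 neighbours, of which 16 had a mean under 1 FPKM and 1 reached 10 FPKM in every library, with a ratio of 1.67. No neighbour was steady, but the single one that could be judged says little.

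In read number the steady genes were close to the other genes at that level, and their lengths were somewhat larger. Lengths inferred from the steps of the FPKM values ran from 1004 to 5684 bases with a median of 2434 bases, against a median of 1685 bases for the other 1250 genes. The mean over the 6 libraries was 329 to 8735 recovered reads per steady gene, with a median of 2199 reads against 2056 reads for the others. Counting alone gives a coefficient of variation (CV, the SD divided by the mean) of 1.12% to 5.77% at these read numbers, with a median of 2.23%. The observed CV of the steady genes was 2.98% to 9.52% (median 6.87%). It was at least 2 times the counting value in most of them, with 5 of 18 below that multiple and 1 below the counting value itself. The other 1250 genes had a median CV of 27.8%, a median counting CV of 2.42%, and 9 genes (0.72%) below 2 times the counting value. The ratio limit bounds the CV of the steady genes, so this contrast follows from the choice. This counting error assumes independent reads and covers no step before sequencing.

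**Figure D2:**
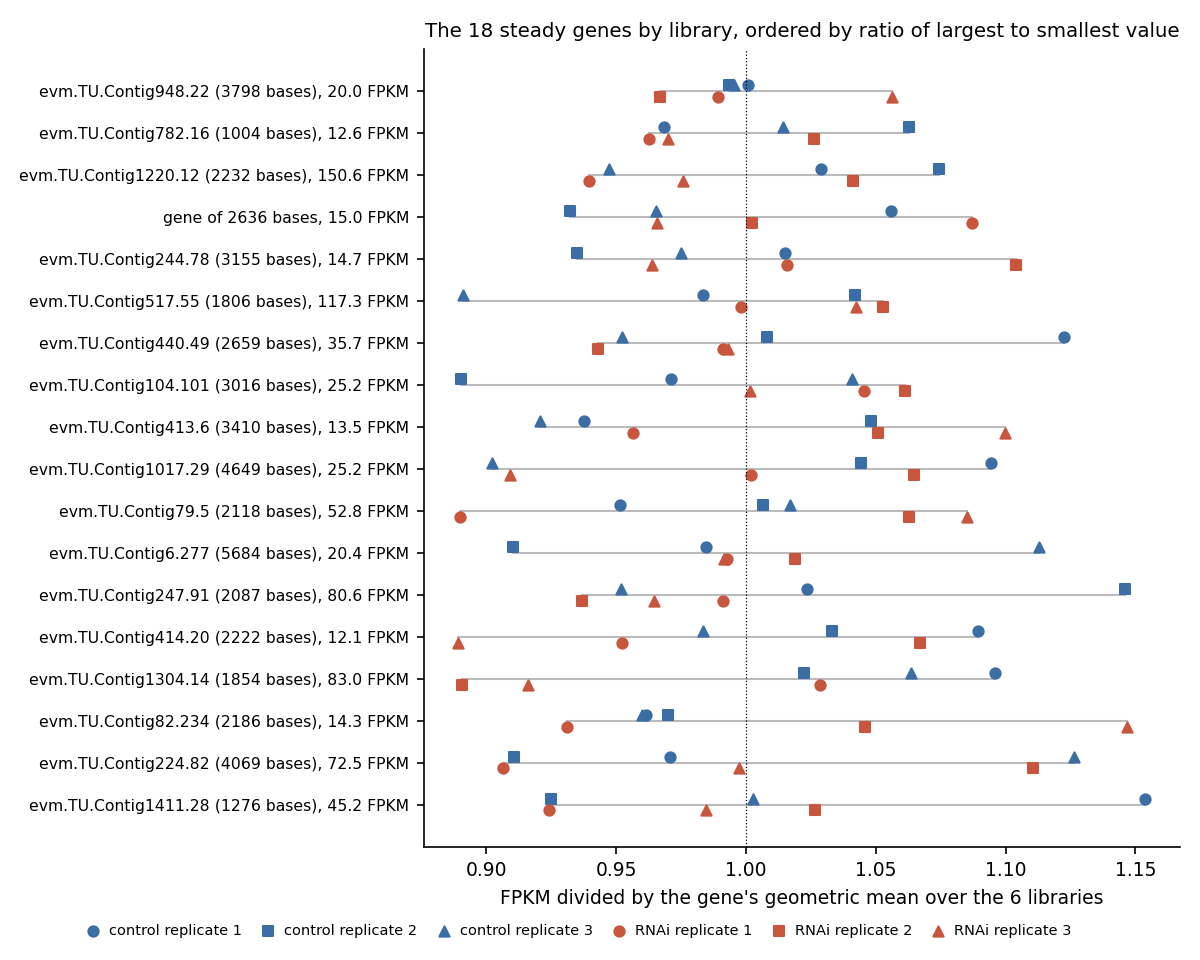
FPKM of the 18 steady genes in each library, divided by the gene's geometric mean over the 6 libraries (x axis). Each row is a gene with its inferred length and mean level, and rows run from the smallest ratio (1.09) to the largest (1.248). Control and RNAi libraries interleave in every row.

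The smallest ratio belonged to evm.TU.Contig948.22, whose inferred length is 3798 bases. It had 19.98, 19.83 and 19.87 FPKM in the control libraries and 19.75, 19.30 and 21.09 FPKM in the RNAi libraries, each in the order of replicates 1, 2 and 3, as in all such lists here. The control libraries lay within 1% of each other (a ratio of 1.007), and RNAi replicates 2 and 3 were the lowest and the highest of the 6. The reads behind these values were 1379, 2299 and 1204 in the control and 1833, 2549 and 2490 in the RNAi libraries. Its CV of 2.98% was close to the 2.36% that counting gives.

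Next came evm.TU.Contig782.16, the shortest of the 18 at 1004 bases. Its control values were 12.2, 13.4 and 12.8 FPKM and its RNAi values 12.1, 12.9 and 12.2 FPKM. Control replicate 2 was the highest and RNAi replicate 1 the lowest, and the groups overlapped. It had 205 to 452 reads per library, the fewest of any steady gene. Here the CV of 4.03% was below the 5.77% that counting gives, so the depth cannot tell whether this gene varied at all between the libraries.

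The most abundant steady gene was evm.TU.Contig1220.12, of 2232 bases. It stood at 155, 162 and 142 FPKM in the control libraries and at 141, 157 and 147 FPKM in the RNAi libraries. As in the gene before it, the extremes were control replicate 2 at the top and RNAi replicate 1 at the bottom. With 5074 to 12156 reads per library the counting CV was 1.12%, and the observed CV of 5.48% was several times that value.

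Second in level was evm.TU.Contig517.55, of 1806 bases. The control values were 115, 122 and 104 FPKM, and the RNAi values were 117, 123 and 122 FPKM. Control replicate 3 was the lowest, apart from the other 5, and RNAi replicate 2 was the highest. The ratio within the group was 1.17 among controls and 1.055 among RNAi libraries.

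The remaining 14 steady genes spanned 10.7 to 92.1 FPKM over all their values. Ratios among the 3 control libraries ran from 1.007 to 1.248 over the 18 genes (median 1.136), and among the 3 RNAi libraries from 1.028 to 1.232 (median 1.118). The control ratio was the larger in 11 genes and the RNAi ratio in 7. The highest value lay in a control library for 10 genes and in an RNAi library for 8, and the lowest in a control library for 7 and in an RNAi library for 11. In 5 genes both extremes came from the same group.

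Single libraries were not evenly spread among the extremes. Control replicate 1 was the highest library for 5 steady genes and the lowest for 0, whereas RNAi replicate 1 was the highest for 1 and the lowest for 6. In the other 1250 genes at that level, control replicate 1 was highest in 32.1% and lowest in 8.6%, and RNAi replicate 1 was highest in 6.2% and lowest in 35.2%. Control replicate 3 was highest in 24.9% of these and in 2 of the 18 (11.1%). Control replicate 2 was lowest in 6.7% of these and in 4 of the 18 (22.2%), and RNAi replicate 3 in 18.8% and in 1 (5.6%). These differences rest on few genes. With 18 genes no test was made of these counts. Deviations from the gene mean were of another size, which follows from the rule, as it limits them in the steady genes. In control replicate 1 the median log2 deviation was 0.01 for the steady genes and 0.21 for the others, and in RNAi replicate 1 it was -0.01 and -0.23. In control replicate 2 it was 0.01 and 0.05. The signs differed in RNAi replicate 2 (0.06 and -0.08), control replicate 3 (-0.03 and 0.004) and RNAi replicate 3 (-0.02 and 0.02).

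The comparison of RNAi with control muscle asks which transcripts differ after RNAi, and for the steady genes the rule already limits the answer. Their log2 differences, RNAi minus control, on the log2(FPKM + 1) scale ran from -0.17 to 0.10 with a median of 0.003, 10 above 0 and 8 below. The other 9697 tested genes had a median of -0.05 (4437 above 0 and 5260 below), and the other 1250 genes at the same level had a median of -0.23. In size, the median difference was 0.07 for the steady genes, 0.35 for the 1250 genes and 0.32 for all other tested genes. Groups did not overlap in 0 of the 18, where 22.7% of the 9715 tested genes had groups apart, 10.5% higher and 12.2% lower after RNAi. At an unadjusted p under 0.05 in limma, 0 of the 18 passed in either direction, against 17.0% of all tested genes (7.73% higher and 9.29% lower after RNAi). At an adjusted p under 0.05 no gene of any kind passed on the deposited scale (0.0%). These counts depend on the scale, since limma called 161 genes past the adjusted threshold under TPM (FPKM rescaled to the same sum in every library), 149 higher and 12 lower. Under scaling to the total of recovered reads it called 132, of which 120 were higher and 12 lower. None of the 18 was among them on either scale, but the 161 and 132 genes were a small part of the 9715 tested. Before adjustment the split under TPM was 2103 higher to 122 lower. As the rule used this contrast, nothing follows from these counts for the steady genes.

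The largest difference upward was that of evm.TU.Contig82.234, of 2186 bases. It had 13.7, 13.8 and 13.6 FPKM in the control libraries and 13.2, 14.9 and 16.3 FPKM in the RNAi libraries. Its control values were nearly equal (13.7 ± 0.08 FPKM, SD, n = 3), while the RNAi values lay on both sides of them (14.8 ± 1.54 FPKM, SD, n = 3). The log2 difference was 0.10 ± 0.22 (SE, limma).

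The largest difference downward was that of evm.TU.Contig1304.14, of 1854 bases. It had 90.7, 84.7 and 88.1 FPKM in the control libraries and 85.2, 73.8 and 75.9 FPKM in the RNAi libraries. RNAi replicates 2 and 3 were the lowest of the 6, while RNAi replicate 1 lay between the control values, so the groups overlapped. The group means were 87.8 ± 3.05 and 78.3 ± 6.08 FPKM (SD, n = 3 each), a log2 difference of -0.17 ± 0.23 (SE, limma), which became 0.50 under TPM and 0.46 under total reads. This SE is drawn towards the spread of all tested genes at that level and is therefore wide for a steady gene.

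Genes steady in the libraries of one group were then described in the other group, whose libraries entered the choice only through the level minimum. Of the 1268 genes at that level, 194 (15.3%) kept to the ratio limit among the 3 control libraries and 286 (22.6%) among the 3 RNAi libraries. Both held for 70 genes, which were 36.1% of the control-steady genes (95% exact binomial interval 29.3% to 43.3%, which treats genes as independent) and 24.5% of the RNAi-steady genes. On the deposited scale the 36.1% was thus above the 22.6% of all genes that were RNAi-steady. On other scales the level minimum was applied anew, so the genes compared differ. Under TPM 1839 genes met it and 117 were control-steady. Of these, 11.97% (95% exact binomial interval 6.7% to 19.3%) were RNAi-steady, against 17.84% of the 1839 genes. Under total reads 1090 genes met it and 54 were control-steady, with 14.8% (6.6% to 27.1%) of them RNAi-steady against 17.8%. Both intervals hold the share of all genes. As genes from the same libraries are not replicates, nothing is concluded from these intervals. Only 18 of the 70 were steady over all 6. In the other 52 the values kept to the limit within each group but not over both, with log2 differences from -0.85 to 1.04. The groups did not overlap in 37 of the 52, a share that the small spread within groups raises by construction. The 22.7% given above for all tested genes is therefore no measure for them.

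Genes chosen for steadiness in 5 libraries were then looked at in the sixth, which had no part in that choice. Between 30 genes (RNAi replicate 2 left out) and 50 genes (control replicate 3 left out) met the rule in 5 libraries, which by construction included the 18. By the same rule these 18 are within the range used below in every left-out library. When RNAi replicate 2 was the sixth library, 28 of 30 genes (93.3%) had a value within the same factor of the geometric mean of the other 5, up or down, against 57.5% of all genes at that level in the other 5. With control replicate 3 as the sixth, 25 of 50 were within this range, against 40.6% of all genes at that level, with 12 above it and 13 below it. Values in control replicate 3 thus left the range in both directions.

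In the left-out control replicate 1, 29 of 48 genes (60.4%, against 41.8%) were within the range, 15 were above it and 4 below it. The opposite was seen in RNAi replicate 1, where 26 of 39 (66.7%, against 42.8%) were within, 1 was above and 12 were below. For control replicate 2 the share was 24 of 33 (72.7%, against 66.6%), and for RNAi replicate 3 it was 27 of 36 (75.0%, against 47.3%). In each of the 6 libraries the share was higher among genes steady in the other 5 than among all genes at that level. The 18 steady genes were in all 6 lists and within the range by the rule, so these 6 shares are not separate observations. This step was run on the deposited scale only. The share exceeded that of all genes by 6.1 to 35.8 percentage points, and as the genes of a library are not replicates, no test was made.

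**Figure D3:**
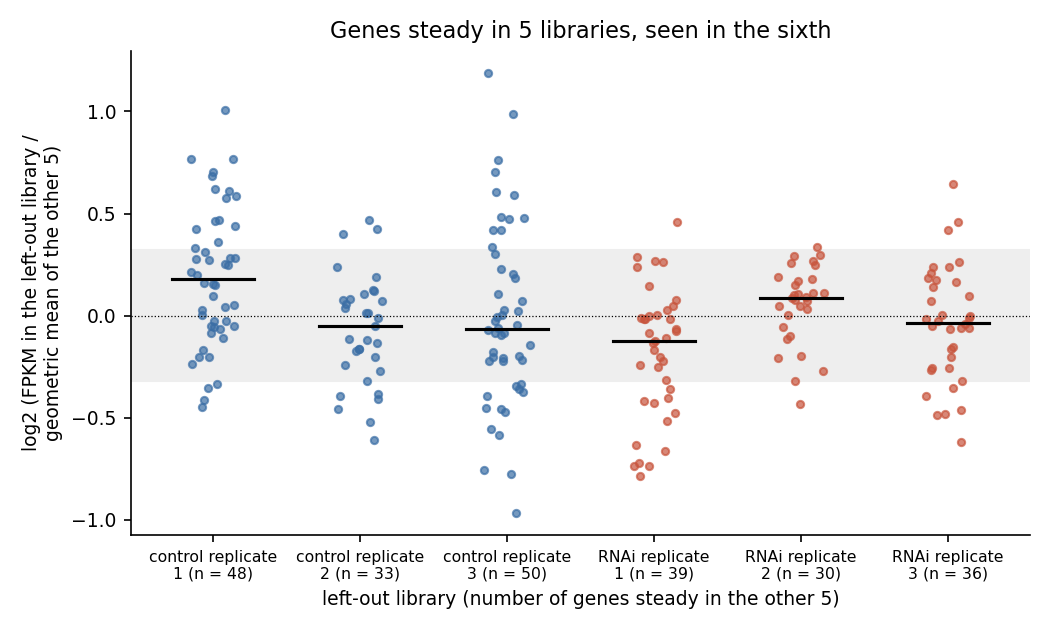
Genes that met the rule in 5 libraries, shown by their log2 value in the sixth relative to the geometric mean of the other 5 (y axis), for each left-out library (x axis). The band marks the same factor as the ratio limit, either way, and the bar the median. Values in RNAi replicate 2 lie almost all in the band (28 of 30), while those in control replicate 3 spread beyond it both ways (25 of 50 inside).

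The 18 genes were steady on the scale of the deposited FPKM and not on scales that equalize library totals. Under TMM, a scaling on the trimmed mean of log ratios, the ratio was 1.11 to 1.252 and 16 of the 18 stayed within the limit. Scaled to the total of recovered reads, their ratios were 1.98 to 2.66, and as TPM they were 2.08 to 2.81. None stayed within the limit under the latter scalings, and all 18 were then higher in the RNAi group, by a median log2 difference of 0.61 and 0.66. Of the other tested genes, 80.8% and 82.5% were higher there as well. A scaling divides all genes of a library by 1 factor, so for genes nearly level as deposited this follows from the factors. It is no separate result on the 18. The rule applied to TMM values gave 17 genes, of which 16 were among the 18. Applied to total reads it gave 3 of the 1090 genes that met the level minimum there, and applied to TPM 5 of 1839, with 0 shared in each case. The 5 genes steady as TPM had log2 differences of -0.70 to -0.60 in the deposited FPKM, where their ratios were 2.27 to 2.55.

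**Figure D4:**
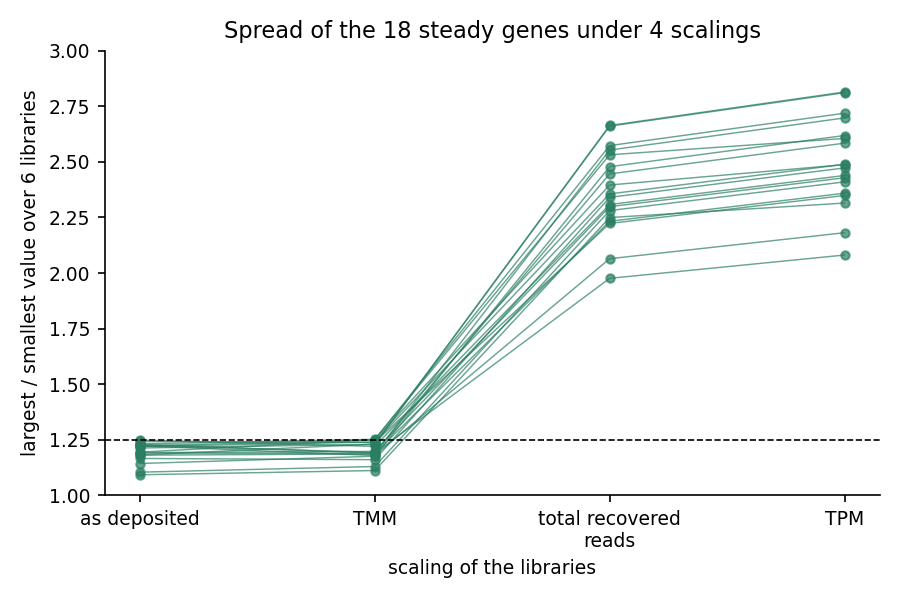
Ratio of the largest to the smallest value over the 6 libraries (y axis) for the 18 steady genes under 4 scalings (x axis), with 1 line per gene and the ratio limit dashed. All ratios are below the limit as deposited, at most 1.252 under TMM, and between 1.98 and 2.81 under total recovered reads and TPM.

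The read totals restate this difference between scales and are no second observation. A gene's share of the reads follows from its FPKM, its length and the library size. The 18 genes together held 0.199%, 0.299% and 0.148% of all recovered control reads, and 0.295%, 0.345% and 0.314% of those in RNAi muscle. The widest of the 95% Wilson intervals, which cover counting error only, was 0.293% to 0.298% (RNAi replicate 1). The share was thus lowest in control replicates 3 and 1, and control replicate 2 lay within the range of the RNAi libraries. The group means were 0.216% ± 0.077 and 0.318% ± 0.025 (SD, n = 3 each). In FPKM, the sum over the 18 genes was 817 ± 18.1 in control and 804 ± 19.9 in RNAi muscle. A single gene of 1275 bases took 36.3%, 29.0% and 48.7% of the control reads and 34.5%, 22.5% and 22.5% of the RNAi reads. Its part in the shares of the steady genes was not tested.

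Scaling on the 18 genes alone moved the median difference of the other genes by less than the pooled SD of the library medians as deposited (0.0125). It moved the median of RNAi replicate 2 by more than that, and it changed which genes met the rule. On that scale 14 of the 18 stayed within the limit, and the rule gave 20 genes with those 14 among them. The library factors from their median log ratios were 1.005, 1.005 and 0.977 in the control and 0.988, 1.041 and 0.986 in the RNAi libraries. The rule itself keeps such factors close to 1. The median log2 difference of the other 9697 tested genes went from -0.053 to -0.062. The medians of the single libraries around the gene means were 0.021 ± 0.017 in control and -0.016 ± 0.004 in RNAi muscle before (SD, n = 3 each, exact two-sided permutation p = 0.1, the smallest possible with 3 against 3). After it they were 0.026 ± 0.027 and -0.021 ± 0.036 (exact two-sided permutation p = 0.3). RNAi replicate 2 moved most, from -0.02 to -0.06, and the groups, apart before, then overlapped. The number of genes past an adjusted p of 0.05 in limma was 0 on either scale, and 1654 and 1637 genes had an unadjusted p under 0.05.

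Under TPM and total reads the other genes moved the way the steady ones did. Their median log2 difference was 0.49 under TPM and 0.40 under total reads, and 82.5% and 80.8% of them were higher in the RNAi group, against 45.8% as deposited. A further scaling on the genes that were steady as TPM left the TPM difference at 0.47, and on those steady under total reads it was 0.43 (exact two-sided permutation p = 0.1 for each, the smallest possible). The deposited and the TMM scale had most of their steady genes in common and the other scales had others. Scaling on them returned a shift close to the one each scale already had. The rule limits the spread of such genes on their own scale, so their library factors must be close to each other. This closeness of the shifts thus follows largely from the choice of genes, and nothing is concluded from it. Without an amount known from outside, such as an added RNA standard, these scales cannot be told apart from these files.

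**Figure D5:**
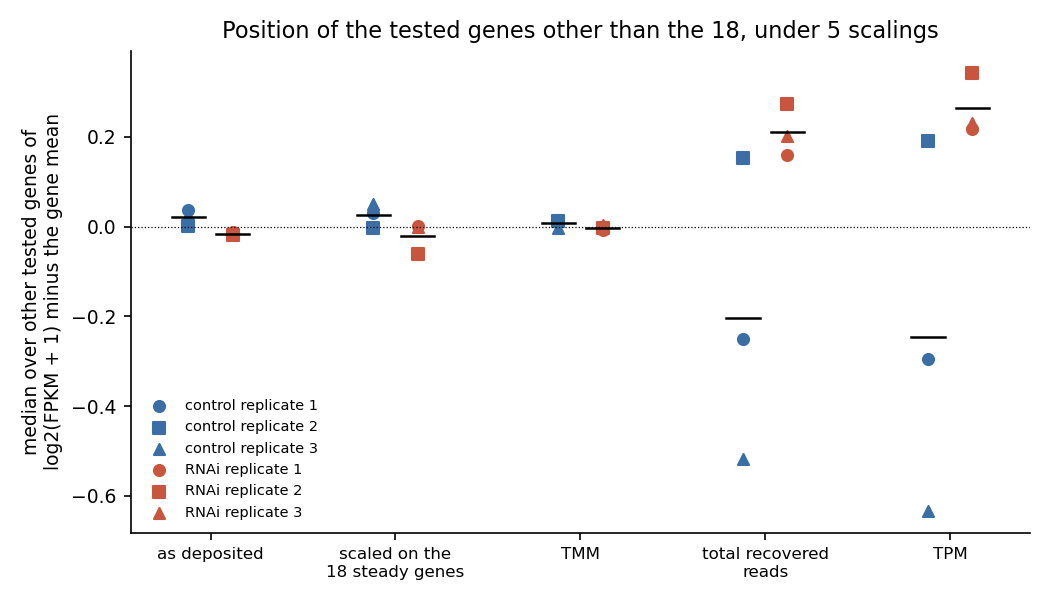
Median over the other 9697 tested genes of log2(FPKM + 1) minus the gene's mean (y axis) for each library under 5 scalings (x axis), with bars at the group means. The libraries lie between -0.062 and 0.051 as deposited, after scaling on the 18 steady genes and under TMM. Under total recovered reads and TPM, control replicates 1 and 3 lie below 0 and control replicate 2 just below the RNAi libraries.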

How the data were processed

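The deposited values are FPKM per gene ID, made by the authors, 1 table per library. The submitters' processing notes list HISAT2 2.0.4 and HTSeq 0.9.1 without role or parameters. Build, annotation and strandedness: not given in the sources used here. Members and lists were chosen with earlier results of these data known, and the steps were tested on simulated data.

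FPKM steps could be turned back into whole reads for 23403 of 23408 genes above 0 (99.98%, within 0.01 read and a relative error of 1e-09). Reads that share a common factor come out too few, with too short a length. Recovered reads totalled 16151390 to 21546537 per library. The library sizes behind the FPKM were 0.74 to 1.67 times these totals, and followed the median-of-ratios size factors of the reads with a CV of 1.06%. The deposited scale thus already sets the typical gene about equal between libraries, a step that no label describes.

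The contrast was fitted with limma 3.58.1 in R 4.3.3 (eBayes, robust and with a trend) on log2(FPKM + 1), over 9715 genes at 1 FPKM or more in 3 or more libraries, with Benjamini-Hochberg adjustment and a threshold of 0.05. Fold changes on this scale understate those of low genes. TMM was computed on the recovered reads (30% trimmed on ratios, 5% on levels). Python 3.11.15 was used otherwise. Named genes are the 2 with the smallest ratio, the 2 with the highest mean and those with the largest difference in each direction. The number of steady genes expected from shuffled values was not computed.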

Additional observations from a re-analysis of the deposited data

How the results depend on the processing

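The number of steady genes, 18, was 30 to 50 when the rule used 5 libraries (48, 33 and 50 without control replicates 1, 2 and 3, and 39, 30 and 36 without RNAi replicates 1, 2 and 3), which asks less of a gene. It was 9 with a ratio of 1.2, 148 with 1.5, 34 from 5 FPKM, 10 from 20 FPKM, 71 without a level minimum, 17 under TMM, 5 under TPM and 3 under total recovered reads. The median log2 difference of the other tested genes, -0.053, was -0.062 on the members alone, -0.065 with a pseudocount of 0.1 and -0.064 to -0.041 when single libraries were dropped. Other values were -0.027 (TMM), -0.17 (filter of 5 FPKM), 0.0095 (no filter), 0.49 (TPM) and 0.40 (total reads). After a further scaling on the genes steady on each scale, an alternative chosen after the data had been seen, it was -0.042 (TMM), 0.47 (TPM) and 0.43 (total reads). The rule that chose these genes itself limits how far this scaling can move the difference. In limma, 0 genes passed an adjusted p of 0.05, but 161 did under TPM, 132 under total reads and 6 with the filter of 5 FPKM. When single libraries were dropped, 0 to 6 did (6 without RNAi replicate 1). None of the steady genes was among them, but those called were a small part of the 9715 tested genes (3570 with the filter of 5 FPKM). At an unadjusted p under 0.05 the number of genes was 1654, and 716 of 3570 with the filter of 5 FPKM. It was 914 without RNAi replicate 2, 1039 without RNAi replicate 3 and 2189 without control replicate 2, the highest with a library left out. It was 2225 under TPM and 2441 of 23408 genes without a filter. The higher genes were 45.4% of these, 94.5% under TPM and 93.7% under total reads. The share of control-steady genes that were RNAi-steady, 36.1% (22.6% of all genes), was 25.9% (16.1%) with a ratio of 1.2, 64.0% (51.0%) with 1.5 and 36.0% (22.1%) under TMM. It was not above that of all genes under TPM, at 11.97% (17.84%), or under total reads, at 14.8% (17.8%). The intervals of both, given above, hold the share of all genes but treat genes as independent, so nothing is concluded from them. Beyond what a changed limit or fewer libraries or genes bring by construction, the cause was not tested. For the 6 named genes, 78 of 90 log2 differences moved by less than the spread within groups. The other 12 were all 6 genes under TPM (0.50 to 0.76) and total reads (0.46 to 0.71), where the differences below 0 turned positive.

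Replicate numbers were not taken as pairs, as same-numbered libraries deviated together with r = -0.04, 0.29 and -0.33 and none matched best with its own number. With the replicate block the median difference was -0.053, 0 genes passed after adjustment and 1511 before it. Depth limits evm.TU.Contig782.16 most, whose 205 to 452 reads give a counting error above its spread.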
